A study of Mus musculus with 4 samples.

Results

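The genes described here are 7 members of the system that draws monocytes out of the blood: the CC chemokines Ccl2, Ccl7, Ccl8 and Ccl12, the membrane-bound chemokine Cx3cl1, and the receptors Ccr2 and Cx3cr1. They were taken by symbol from the 31054 features of a single-cell RNA-seq experiment, and all 7 (5 ligands and 2 receptors) were found. Stromal vascular cells of gonadal white adipose tissue came from male p16-CreERT2/R26-LSL-tdTomato mice of 18 months, in which tamoxifen, injected daily before the tissue was taken, turns on the red reporter in cells with an active p16 promoter. The sort gave 4 libraries. A Tom+ and a Tom- library bear the label CD45-, another Tom+ and Tom- library the label CD45+, where CD45 is the surface protein of leukocytes and Tom the reporter, and these are called the CD45- pair and the CD45+ pair. Each group was 1 library, and the sources used here do not give the number of mice behind it, so no difference has a replicate check: a comparison is between libraries, and the intervals printed cover counting error only. Tom+ reports p16 promoter activity during the tamoxifen window and is not by itself a measure of senescence. The 4 values of a gene are given throughout in 1 order: Tom+ and then Tom- of the CD45- pair, followed by Tom+ and then Tom- of the CD45+ pair.

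Chemokines are small secreted proteins that bind to the vessel wall and matrix and guide leukocytes through G protein-coupled receptors. CCL2 and CCL7 are the classic ligands of CCR2 and release inflammatory monocytes from bone marrow into blood and tissue; CCL8 and CCL12 belong to the same monocyte chemoattractant group, of which CCL12 is found in mice. CX3CL1, or fractalkine, is anchored in the membrane of the cell that makes it until proteases cut it free, and its receptor CX3CR1 marks patrolling monocytes and many tissue macrophages. In adipose tissue, recruitment through CCR2 is known for feeding the macrophage pool in obesity.

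The 4 CC ligands lay in one run on chromosome 11. In GRCm38 with the GENCODE annotation, Ccl2 (chr11:82035571-82037453), Ccl7 (chr11:82045712-82047525), Ccl12 (chr11:82101845-82103400) and Ccl8 (chr11:82115185-82116799) are 3-exon genes on the + strand within 81.2 kb, and the eosinophil chemokine Ccl11 lies between them. Cx3cl1 (chr8:94772009-94782427, + strand), Ccr2 (chr9:124101950-124113557, + strand) and Cx3cr1 (chr9:119901616-120069879, - strand) lie elsewhere. The gene identifiers in the same order are ENSMUSG00000035385, ENSMUSG00000035373, ENSMUSG00000035352, ENSMUSG00000009185, ENSMUSG00000031778, ENSMUSG00000049103 and ENSMUSG00000052336. No 50-base stretch of the 5 ligands' transcripts recurred in another gene, while 1.91% of those of Ccr2 did and 0.269% of those of Cx3cr1. Ccl2 overlaps the antisense gene Gm17268, which the stranded 3-prime reads tell apart, and the longest Cx3cr1 isoform spans Csrnp1 and other genes of its strand. Promoter sequences, 250 bases before to 50 after the start site, were at hand from RefSeq (GRCm38.p6) for 5 of the 7 members. Those of the 3 ligands among them are shown because these genes stood highest in different named classes of at least 30 cells. These were macrophage-like cells for Ccl8 and Ccl12, and stroma and endothelium for Cx3cl1. Ccl8 was also read in progenitor-like cells, as described below. Capitals mark TATAAA and the PU.1 core GAGGAA on either strand (TTCCTC as printed when it lies on the other strand).
Ccl8, chr11:82114935-82115234, + strand: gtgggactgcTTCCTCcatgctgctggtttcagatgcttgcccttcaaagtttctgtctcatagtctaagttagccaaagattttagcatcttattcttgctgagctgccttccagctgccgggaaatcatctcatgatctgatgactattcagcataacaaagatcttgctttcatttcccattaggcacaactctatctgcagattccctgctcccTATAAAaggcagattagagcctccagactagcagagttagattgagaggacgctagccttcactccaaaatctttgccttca
Ccl12, chr11:82101595-82101894, + strand: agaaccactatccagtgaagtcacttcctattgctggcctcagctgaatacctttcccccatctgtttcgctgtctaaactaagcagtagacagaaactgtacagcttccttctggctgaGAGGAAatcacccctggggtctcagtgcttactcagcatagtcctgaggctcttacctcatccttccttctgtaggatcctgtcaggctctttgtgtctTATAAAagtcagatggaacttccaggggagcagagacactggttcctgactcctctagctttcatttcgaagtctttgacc
Cx3cl1, chr8:94771930-94772229, + strand: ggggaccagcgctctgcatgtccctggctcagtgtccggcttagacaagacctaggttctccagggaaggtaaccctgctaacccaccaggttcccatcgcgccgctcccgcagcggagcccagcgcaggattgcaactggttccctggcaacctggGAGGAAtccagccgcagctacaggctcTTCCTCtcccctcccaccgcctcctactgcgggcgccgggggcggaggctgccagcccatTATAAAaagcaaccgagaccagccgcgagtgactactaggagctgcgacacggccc
TATAAA, held by 13.6% of 32851 promoters of this length on either strand, began 32 bases before the start site of Ccl8 (-32), at -31 in Ccl12 and at -6 in Cx3cl1. GAGGAA, held by 28.3% of all promoters, began at -240 in Ccl8 (other strand), at -130 in Ccl12, and at -93 and -66 (other strand) in Cx3cl1. No match to the AP-1 site TGACTCA (5.2% of promoters), CCAAT (37.4%) or the NF-kB site (4.51%) was found in these 3 windows. Aligned over their length, the windows of Ccl12 and Ccl8 were identical at 58.0% of columns, against 50.0% for Ccl12 with Cx3cl1 and 51.5% for Ccl8 with Cx3cl1. The matches are letters in a window and are not shown to be used sites.

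After filtering, the libraries held 3886, 3674, 1927 and 4391 cells with medians of 18331 to 19516 UMIs, each UMI being 1 captured RNA molecule. Clustering without the members gave 30 clusters, of which 23 were named from marker genes in 14 classes and 7, with 10.9% of cells, stayed unnamed because they carried markers of several types or were led by markers of a second one. All 10 macrophage markers, all 8 mast cell markers and all 8 progenitor markers were raised in the clusters given those names. The reporter was high in the Tom+ and low in the Tom- libraries (713, 15.8, 714 and 18.7 as CPM, the counts of a gene per 1000000 UMIs), but the leukocyte gene Ptprc, which encodes CD45, did not separate the libraries by theirs (217, 157, 223 and 188 CPM), and leukocytes and stroma were found in all 4. The CD45 labels are therefore used only as names. From 26 to 4394 barcodes were shared by a pair of libraries, but only 80 of the 13878 cells kept (0.576%) had a barcode that was a cell elsewhere, and the counts of members past the fold used below were the same without them. The make-up of the Tom+ and Tom- libraries differed: plasma cell-like cells were 21.4%, 1.06%, 22.1% and 1.32% of cells, mast-like cells 9.26%, 1.03%, 8.93% and 1.05%, and progenitor-like cells 6.92%, 41.8%, 5.60% and 39.1%. RNA set free from broken cells gives UMIs of abundant genes in every droplet. B cell-like cells therefore served as the background for the ligands, and progenitor-like cells for the receptors. Whether either class makes some of this RNA itself was not tested. Backgrounds were compared in CPM, in which each UMI of a shallow cell weighs more. B cell-like cells had medians of 5296 to 6534 UMIs and progenitor-like cells 21441 to 23425.

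**Figure D1:**
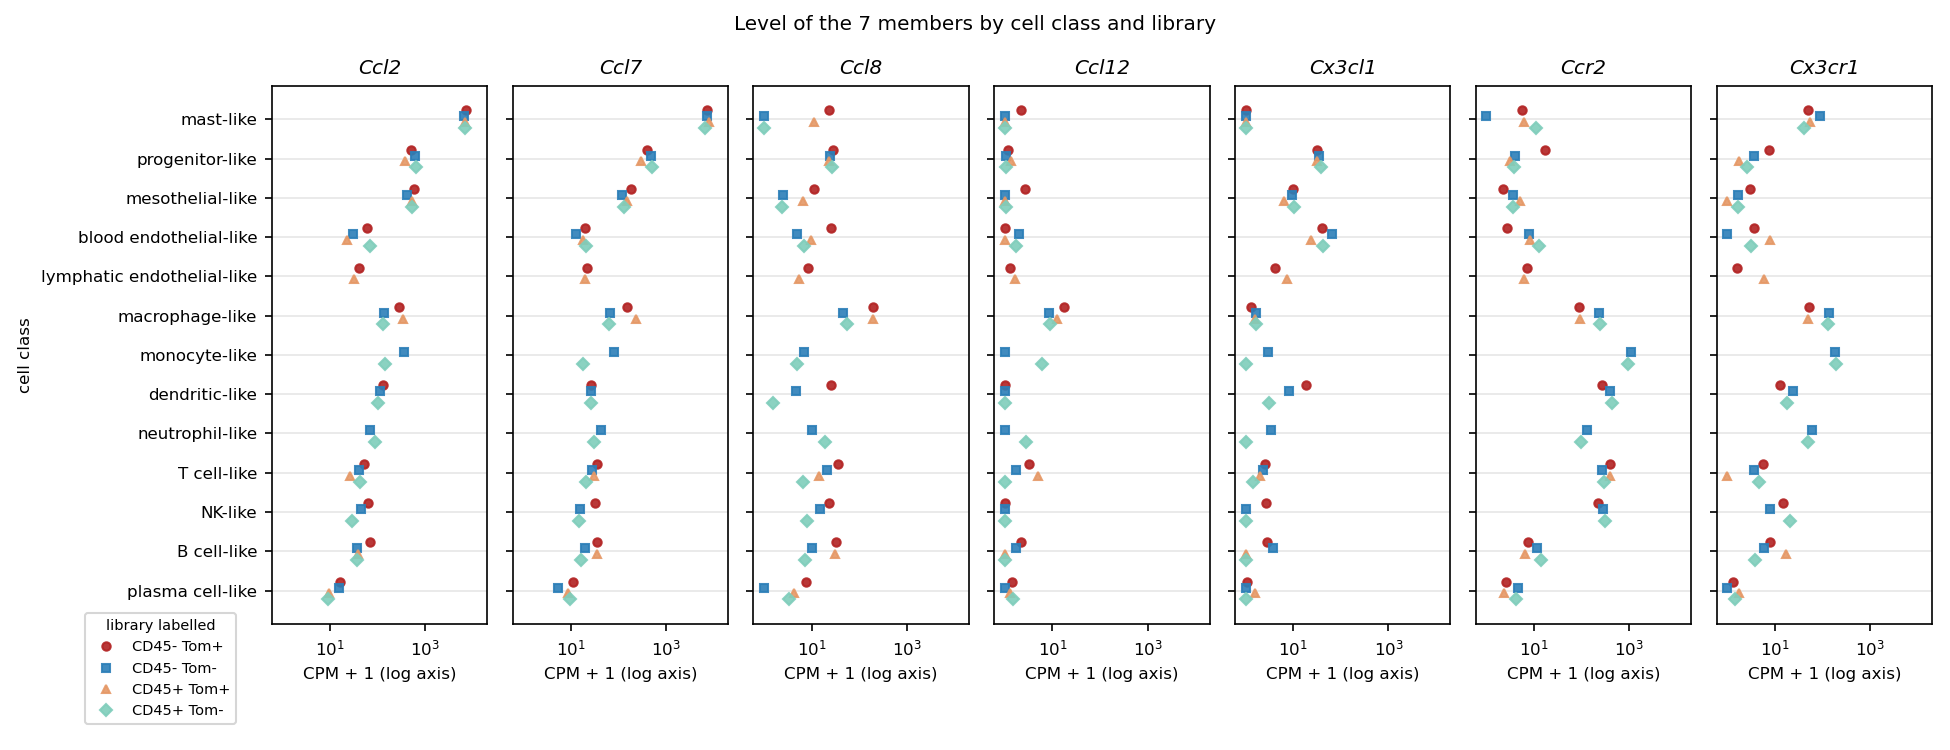
Level of each member (CPM + 1, log axis) in the named classes with at least 30 cells in a library; each point is 1 library. Ccl2 and Ccl7 stand above 6000 CPM in mast-like cells of all 4 libraries, Ccl8 and Ccl12 are highest in macrophage-like cells, Cx3cl1 in blood endothelial-like and progenitor-like cells, and Ccr2 and Cx3cr1 in monocyte-like cells.

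Ccl2, the main monocyte chemoattractant, was highest in mast-like cells. It stood there at 7026, 6479, 6809 and 6765 CPM in 360, 38, 172 and 46 cells, and the lowest of these values lay above that of every other class. Next came an unnamed stromal cluster of 692 cells led by the chemokines Cxcl13 and Cxcl5 and the acute-phase gene Saa3, with markers of both progenitors and mesothelium, at 1483, 1358, 1277 and 1666 CPM. Progenitor-like cells (489, 607, 369 and 622 CPM) and mesothelial-like cells, which line the surface of the depot (563, 414, 513 and 518 CPM), overlapped in their ranges. Of the named classes, macrophage-like cells followed at 277, 137, 346 and 129 CPM. Unnamed clusters other than the Cxcl13-led one were left out of this order. One of them, with all 10 macrophage markers and T cell markers raised, held 891 and 289 Ccl2 UMIs in 53 and 24 cells of the Tom+ libraries. Monocyte-like cells, counted in the Tom- libraries only because the Tom+ ones held 12 and 4 of them, stood at 348 and 140 CPM and overlapped the macrophage-like cells. Few cells carried these values: 1 of the 48 cells held 44.4% of the Ccl2 UMIs, and 2 of the 60 held 52.8%. Dendritic-like cells held 101 to 126 CPM in the 3 libraries with at least 30 cells. There 1 of 38, 2 of 84 and 2 of 97 cells held 37.2%, 34.8% and 25% of the Ccl2 UMIs. The class values stood above the B cell-like background of 66.2, 35.2, 37.6 and 35.6 CPM. Neutrophil-like cells of the Tom- libraries (68.1 and 88.5 CPM) and blood endothelial-like cells (21.2 to 68.0 CPM) reached past this highest background value with intervals that overlapped it. T cell-like cells (at most 51.6 CPM) and NK-like cells (28.3 to 60.6 CPM in the 3 libraries with at least 30) did not exceed that value. Plasma cell-like cells lay under the background in CPM (8.24 to 15.3). Per cell they held 0.561, 0.513, 0.326 and 0.310 Ccl2 UMIs, against 0.571, 0.240, 0.292 and 0.253 in B cell-like cells.

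Ccl7, a second ligand of CCR2 encoded next to Ccl2, was likewise highest in mast-like cells. It stood there at 7255, 7072, 7765 and 6482 CPM. Progenitor-like cells held 401, 469, 290 and 504 CPM and the Cxcl13-led cluster 487, 443, 399 and 596 CPM, so these overlapped. Mesothelial-like cells were lower at 186, 116, 153 and 126 CPM, and macrophage-like cells stood at 149, 63.9, 237 and 63.5 CPM. All of these stood above the B cell-like background of 34.0, 19.0, 34.0 and 15.7 CPM. Because every UMI is 1 captured 3-prime end, UMIs of different genes can be set side by side without dividing by length, although capture may differ between genes. Per Ccl2 UMI, mast-like cells held 1.03, 1.09, 1.14 and 0.958 Ccl7 UMIs. The ratio was 0.819, 0.772, 0.788 and 0.810 in progenitor-like cells and 0.330, 0.281, 0.299 and 0.244 in mesothelial-like cells. As class sums, the balance of the 2 chemokines thus separated mast-like, progenitor-like and mesothelial-like cells without overlap between their libraries. Macrophage-like cells lay between the last 2 (0.537, 0.467, 0.686 and 0.494). Single clusters did not keep this order. The largest progenitor-like cluster, led by Inmt and Hmcn2, stood at 1.44, 1.07, 1.93 and 1.09, within or above the mast-like range. The Cxcl13-led cluster, at 0.328, 0.326, 0.312 and 0.358, overlapped the mesothelial-like range.

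The mast-like RNA was not held by a few cells. Every mast-like cell of all 4 libraries had a Ccl2 UMI (100%), and after thinning each cell to 2000 UMIs 99.7%, 100%, 99.4% and 100% still did. B cell-like cells, of like depth (medians of 5296 to 6534 UMIs against 4900 to 6753), gave 30.3%, 20.7%, 20.8% and 23.6%, and 10.1%, 6.76%, 11.1% and 9.46% once thinned. For Ccl7 the thinned shares were 90.6%, 94.7%, 91.9% and 95.7% of mast-like cells, against 5.56%, 3.86%, 12.5% and 3.04% of B cell-like cells. The median mast-like cell carried 37, 35, 41 and 33 Ccl2 UMIs, and the top 2% of cells held 8.6% to 10.3% of them. Between Tom+ and Tom- mast-like cells Ccl2 differed little, with log2 ratios of 0.12 (95% interval 0.05 to 0.19) in the CD45- pair and 0.01 (-0.06 to 0.08) in the CD45+ pair. Those of Ccl7 were 0.04 (-0.03 to 0.11) and 0.26 (0.19 to 0.33). These ratios rest on 38 and 46 Tom- cells, and this class was admitted after the data had been seen, by lowering the smallest class from 100 to 30 cells. The summed level of 11 genes known to rise during tissue dissociation, such as Fos and Jun, was 26637 to 29641 CPM in mast-like cells, 27196 to 29247 CPM in progenitor-like cells and 6584 to 7776 CPM in macrophage-like cells, and its part in the level of Ccl2 and Ccl7 was not tested.

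**Figure D2:**
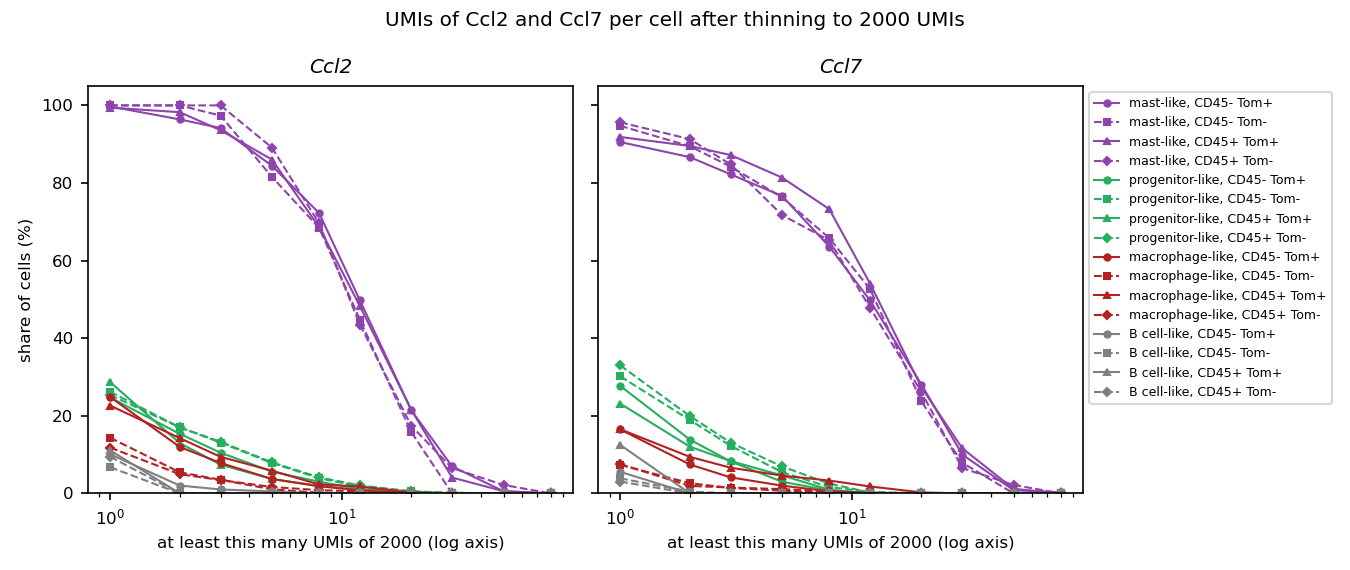
Share of cells (y axis, %) with at least a given number of Ccl2 or Ccl7 UMIs (x axis, log scale) after thinning to 2000 UMIs a cell, for 4 classes (colour) and the 4 libraries (marker; Tom- dashed). The mast-like curves of the 4 libraries lie together, far above those of progenitor-like, macrophage-like and B cell-like cells.

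The class that held most Ccl2 and Ccl7 RNA differed between Tom+ and Tom- libraries, as did the share of mast-like cells, while the level over all cells differed far less. Over all cells, Ccl2 stood at 434, 533, 408 and 540 CPM and Ccl7 at 321, 320, 338 and 332 CPM. Mast-like cells held 44.5% (exact binomial interval 44.0 to 44.9), 4.45% (4.25 to 4.66), 47.8% (47.1 to 48.5) and 4.02% (3.85 to 4.20) of the Ccl2 UMIs. For progenitor-like cells the shares were 7.23%, 53.9%, 5.15% and 53.5%. The Cxcl13-led cluster held 20.4%, 24.0%, 17.5% and 23.6%, the macrophage-like cells 12.2%, 3.81%, 15.2% and 3.92%. Ccl7 split in the same way, with 62.0%, 8.08%, 65.7% and 6.26% of its UMIs in mast-like cells and 8%, 69.2%, 4.89% and 70.4% in progenitor-like cells. When each cell weighed the same, whatever its depth, the mast-like shares of Ccl2 were 74.9%, 13.9%, 72.7% and 15.1%. These shares depend on what the sort let through and on the RNA content of each class, since a UMI sum does not separate more cells from more RNA per cell. Without the mast-like cells, Ccl7 fell from 321 to 125 CPM and from 338 to 119 CPM in the Tom+ libraries and from 320 to 295 CPM and from 332 to 312 CPM in the Tom- libraries.

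**Figure D3:**
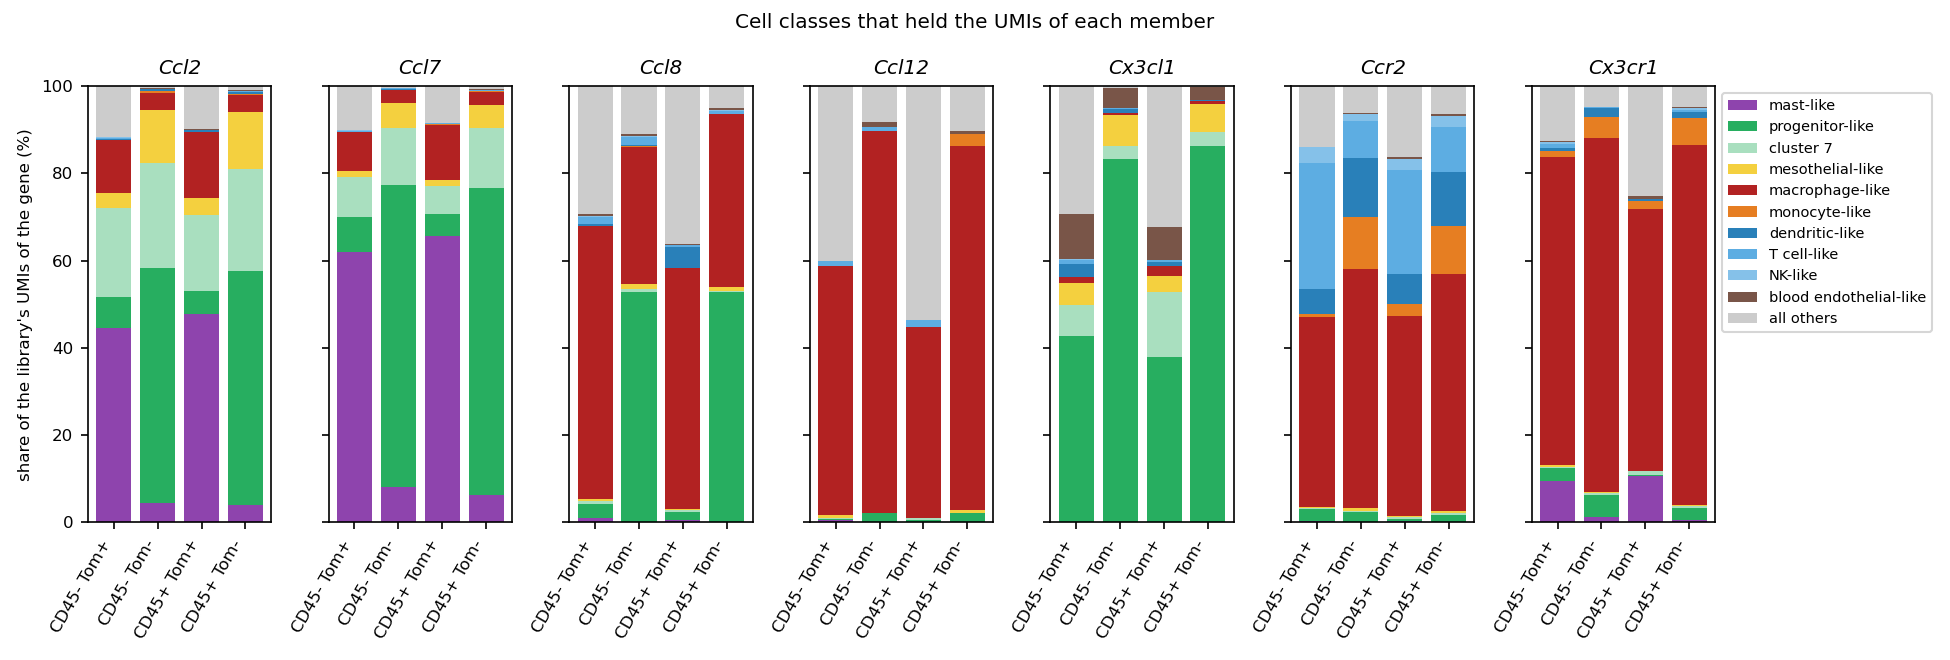
Share of each library's UMIs of a member (y axis, %) held by the named classes and the Cxcl13-led cluster (cluster 7); all others are in grey. Mast-like cells hold 44.5% and 47.8% of Ccl2 UMIs in the Tom+ libraries against 4.45% and 4.02% in the Tom- ones, where progenitor-like cells hold most.

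Within progenitor-like cells, the adipocyte precursors and fibroblasts of the depot, Ccl2 and Ccl7 were uneven. The largest cluster, led by Inmt and Hmcn2, held Ccl2 at 170, 242, 65.7 and 292 CPM. In the cluster led by the matrix genes Postn and Col8a1, Ccl2 was higher in every library and stood at 660, 568, 521 and 753 CPM. In the cluster led by Sfrp1, with Il6 and all 6 markers of inflammatory progenitors raised, Ccl2 stood at 685, 1234, 777 and 958 CPM, of which the Tom+ values rest on 35 and 19 cells. The top 2% of progenitor-like cells held 34.3%, 28.0%, 38.5% and 32.0% of the Ccl2 UMIs, and 24.7%, 26.2%, 28.7% and 25.4% of cells had one after thinning. Among thinned cells, those with a Ccl2 UMI more often had a Ccl7 UMI than those without. The shares were 53.0% against 19.4%, 58.5% against 20.1%, 48.4% against 13%, and 63.0% against 22.8%. Spearman's rho between the thinned Ccl2 and Ccl7 counts of single progenitor-like cells was 0.39 to 0.42 in 3 libraries, and 0.37 to 0.45 in mast-like cells of the 4; cells of a library share its free RNA. Ccl8 did not follow. After thinning, in the Tom- libraries, 3.73% and 3.91% of Ccl2-positive progenitor-like cells had a Ccl8 UMI against 3.98% and 4.84% of the others.

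Against the Tom- library of the same CD45 label, Tom+ progenitor-like cells had less Ccl2, with log2 ratios of -0.31 (-0.37 to -0.26) and -0.76 (-0.85 to -0.66), and less Ccl7, at -0.23 (-0.29 to -0.17) and -0.80 (-0.90 to -0.69). None of these passed the 2-fold mark set for a call. Of the members computed in this class, Ccr2 alone passed it, at 2.40 (1.99 to 2.81) in the CD45- pair; in that pair 1.57% of the 9924 genes computed were at least 2-fold higher in Tom+ and 0.151% lower. In the CD45+ pair, 0 of 4 members passed, where 1.09% of 9836 genes were higher and 0.498% lower. The Ccr2 call came from few cells: 6 of the 269 Tom+ cells held 83.8% of the 99 UMIs, and in those 6 the summed level of 28 leukocyte markers was 3074 CPM against 1043 CPM in the rest. With the cells marked as doublets kept, no member passed.

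In macrophage-like cells the 4 CC ligands were higher and the 2 receptors lower in both Tom+ libraries. Ccl2 was at 277 (Poisson interval 269 to 285), 137 (130 to 144), 346 (333 to 358) and 129 (123 to 134) CPM, a Tom+ over Tom- difference of 1.02 on the log2 scale (0.94 to 1.10) in the CD45- pair and of 1.43 (1.34 to 1.51) in the CD45+ pair. Ccl7 differed by 1.22 (1.10 to 1.34) and 1.90 (1.79 to 2.01). Ccl8, which in mice also acts on CCR8, stood at 188, 44.4, 194 and 54.8 CPM and differed by 2.08 (1.95 to 2.22) and 1.82 (1.70 to 1.94). Both Tom+ values lay above both Tom- values for each of the 3, although for Ccl2 the 2-fold mark lay inside the first interval. Ccl12 was sparse at 16.3, 7.57, 11.6 and 8.05 CPM, with ratios of 1.10 (0.75 to 1.47) and 0.53 (0.13 to 0.92). In the CD45- Tom- library, 1 cell held 43 of its 84 UMIs, and the top 2% of cells held 64.6% to 89.3% over the libraries. Ccr2 was at 85.4, 232, 89.7 and 246 CPM, or -1.44 (-1.53 to -1.35) and -1.45 (-1.57 to -1.34), and Cx3cr1 at 52.4, 136, 50.1 and 131 CPM, or -1.38 in both pairs (the wider interval was -1.53 to -1.23). Of the 6 members computed, 4 were thus past the fold upward and 2 downward in the CD45- pair, where 0.958% of 8877 genes were higher and 1.16% lower. In the CD45+ pair, 3 were higher and 2 lower, where 1.05% of 8925 genes were higher and 1.43% lower. Cx3cl1 was not computed, standing at 0.330 to 0.665 CPM. The class left out unnamed clusters with macrophage markers raised. One with all 10 raised but led by plasma cell genes held 158, 2, 89 and 6 cells. Another, with erythroid markers also raised, held 125, 7, 51 and 34 cells. The ratios above do not include these cells, and their effect on the ratios was not tested. The B cell-like background, at lower levels, also held more of some ligands in Tom+. In the CD45- pair its log2 ratios were 0.91 (0.42 to 1.42) for Ccl2, 0.84 (0.16 to 1.55) for Ccl7 and 1.79 (0.90 to 2.79) for Ccl8. The Tom+ value of Ccl2 there rests in part on 1 of 198 cells, with 29 of the 113 UMIs. In the CD45+ pair, with 72 Tom+ cells, the 3 log2 ratios were 0.08 (-0.69 to 0.79), 1.12 (0.22 to 1.98) and 2.30 (1.17 to 3.47). T cell-like cells gave 0.78 (0.16 to 1.44) and 1.18 (-0.02 to 2.38) for Ccl8. The part of free RNA in the macrophage-like ratios was not tested.

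The 3 macrophage-like clusters differed in the members and occurred in different proportions. A cluster led by Vsig4, Marco and Folr2, genes of resident tissue macrophages, made up 22.3%, 7.53%, 26.0% and 9.05% of the class. A cluster led by Gpnmb, Mmp12 and Trem2, genes of lipid-associated macrophages, made up 52.5%, 28.7%, 47.8% and 30.5%, and a cluster led by Arg1, Spp1 and Olr1 made up 25.1%, 63.7%, 26.2% and 60.5%. The Vsig4-led cells held the most Ccl2 and Ccl7 in every library and the most Ccl8 in 3 of 4, with Ccl2 at 843, 379, 1112 and 443 CPM, Ccl7 at 480, 255, 820 and 348 CPM and Ccl8 at 388, 193, 721 and 105 CPM. In Gpnmb-led cells Ccl2 was at 198, 176, 215 and 159 CPM and Ccl8 at 196, 83.3, 107 and 119 CPM. The Arg1-led cells held the least, with Ccl2 at 57.9, 86.2, 83.0 and 66.3 CPM and Ccl8 at 12.8, 4.20, 3.82 and 3.76 CPM, which lies under the B cell-like background of Ccl8 (31.7, 9.15, 30.5 and 6.17 CPM). The receptors were highest in the Arg1-led cells in every library: Ccr2 stood at 223, 341, 302 and 366 CPM in Arg1-led cells, at 51.6, 229, 31.1 and 127 CPM in Vsig4-led cells and at 45.4, 54.3, 32.0 and 94.4 CPM in Gpnmb-led cells. Cx3cr1 was at 128, 196, 128 and 201 CPM, 89.9, 143, 51.5 and 117 CPM, and 14.7, 39.1, 22.3 and 31.9 CPM in the same order of clusters.

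**Figure D4:**
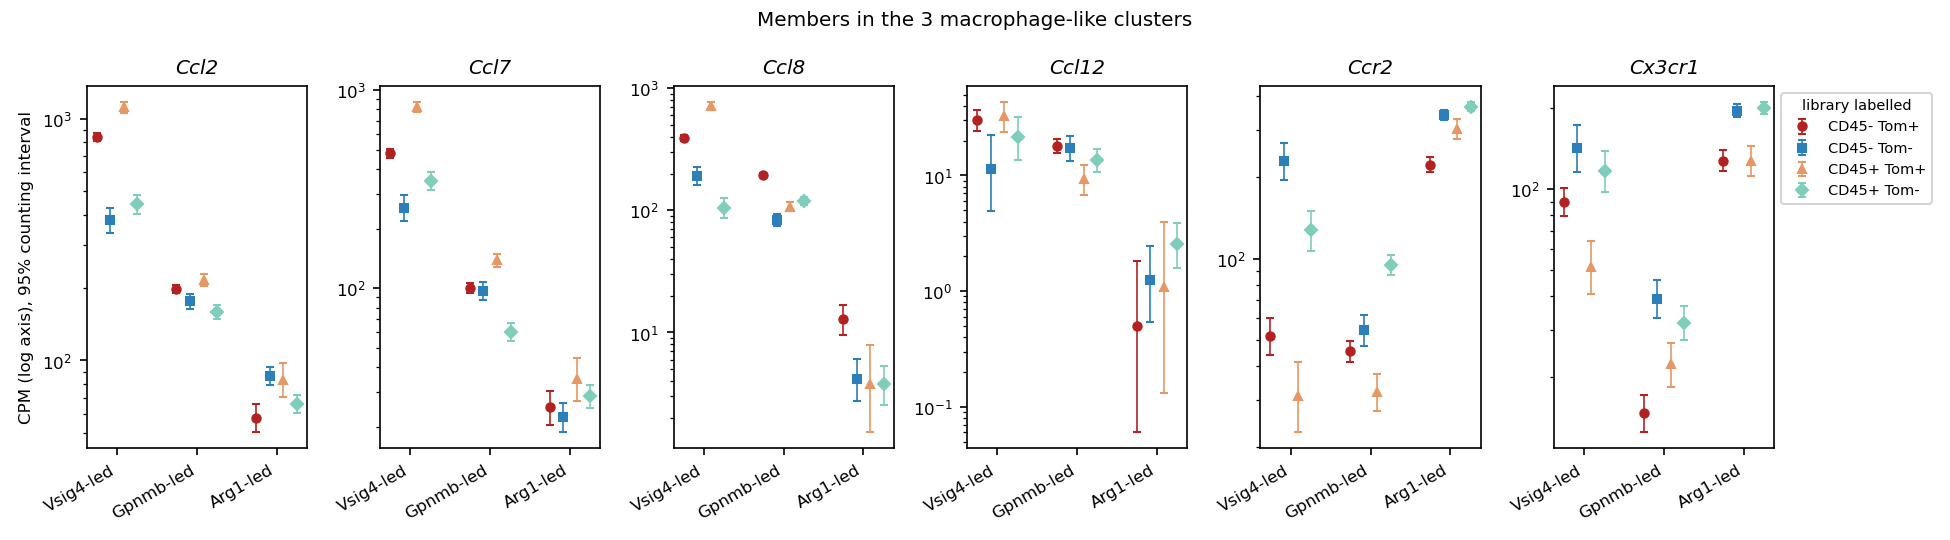
Level of 6 members (CPM, log axis, 95% counting interval) in the 3 macrophage-like clusters by library; y axes differ between panels. The 4 ligands are lowest in the Arg1-led cluster in every library, and Ccr2 and Cx3cr1 are highest in the Arg1-led cluster.

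When the clusters were given the same weight in both libraries of a pair, an alternative chosen after the data had been seen, the differences shrank. The log2 ratio of Ccl2 became 0.41 and 0.80, that of Ccl7 0.42 and 1.13, and that of Ccl8 1.17 and 0.98. Ccl12 became 0.30 and -0.19, changing sign in the CD45+ pair. For Ccr2 the values were -0.69 and -0.58, and for Cx3cr1 -0.73 and -0.69. In each pair 1 member then stayed past the fold, Ccl8 in the first and Ccl7 in the second. The same mix was computed for the members only, so no share of all genes past the fold stands beside this count. Within the Vsig4-led cluster itself, where the Tom- libraries held 43 and 66 cells, Ccl2 differed by 1.15 (0.97 to 1.34) and 1.33 (1.18 to 1.48), Ccl8 by 1.01 (0.76 to 1.28) and 2.78 (2.50 to 3.07), and Ccr2 by -2.15 (-2.48 to -1.83) and -2.03 (-2.54 to -1.55). The other clusters differed less for Ccl2. In Gpnmb-led cells the ratios were 0.17 (0.05 to 0.30) and 0.43 (0.30 to 0.56) for Ccl2, 1.23 (1.06 to 1.40) and -0.15 (-0.32 to 0.01) for Ccl8, and -0.26 (-0.49 to -0.02) and -1.56 (-1.82 to -1.31) for Ccr2. In Arg1-led cells Ccl2 went opposite ways in the 2 pairs, at -0.57 (-0.80 to -0.35) and 0.32 (0.05 to 0.59), while Ccr2 was at -0.61 (-0.73 to -0.50) and -0.28 (-0.41 to -0.14).

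**Figure D5:**
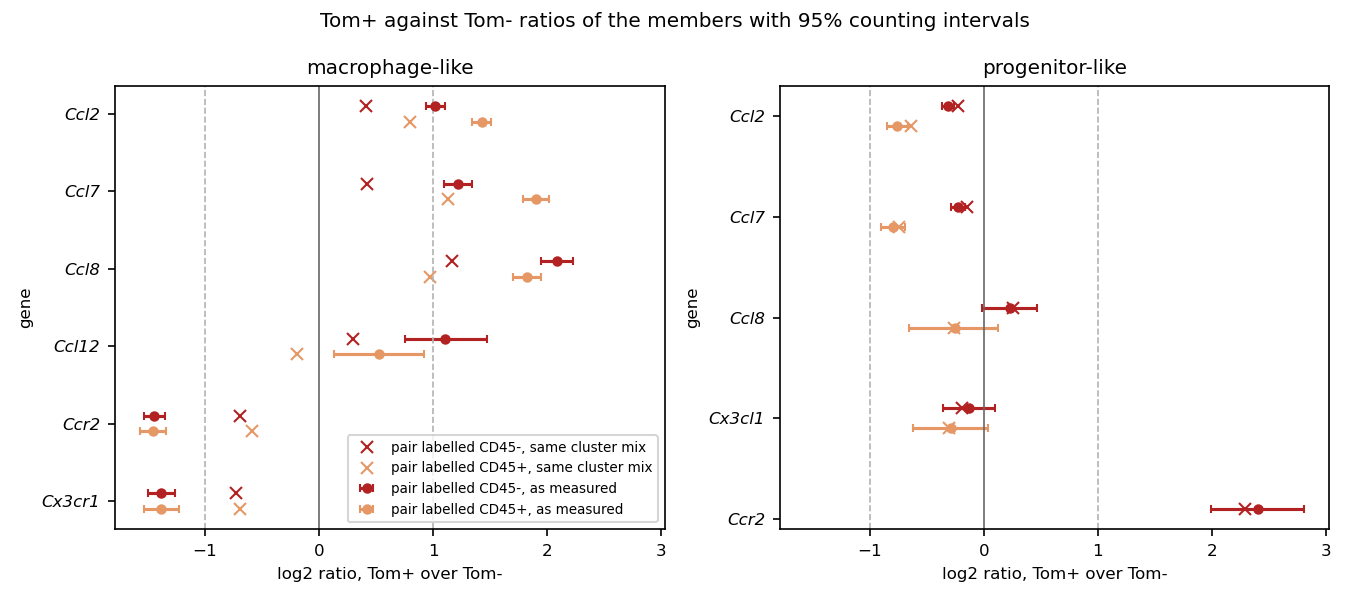
Tom+ over Tom- log2 ratios with 95% counting intervals in macrophage-like and progenitor-like cells for both pairs; crosses give the ratio with the same cluster mix, dashed lines the 2-fold mark. In macrophage-like cells Ccl2, Ccl7 and Ccl8 lie to the right of 1 and both receptors to the left of -1 as measured, and most values move inside with the same mix.

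Markers of other classes also differed between Tom+ and Tom- macrophage-like cells. In macrophage-like cells all 7 plasma cell markers were detected in every library and summed to 1989, 403, 1869 and 370 CPM, and the 8 mast cell markers to 127, 31.5, 126 and 21.6 CPM, with Ms4a2 at 0 in the last. The 8 progenitor markers summed to 349, 664, 354 and 721 CPM, and the 10 monocyte markers to 262, 487, 263 and 502 CPM. Of the monocyte markers, F10 was also among the 10 leading genes of the Arg1-led cluster, so that sum need not come from other cells alone. Whether the plasma cell, mast cell, progenitor and monocyte sums came from other cells, and their part in the ratios, was not tested. Ligand RNA was also uneven from cell to cell: the top 2% of macrophage-like cells held 33.6% to 49.7% of Ccl2 UMIs and 47.5% to 75.3% of Ccl8 UMIs. After thinning, Ccl7 was found in 44.4%, 20.7%, 50.6% and 26.7% of macrophage-like cells with a Ccl2 UMI. Of the thinned macrophage-like cells without one, 7.26%, 5.11%, 6.58% and 4.98% had a Ccl7 UMI.

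Of the named classes with at least 30 cells, macrophage-like cells held the most Ccl8 and Ccl12, and Ccl8 was also read in others. Small groups of the Tom+ libraries stood higher, with Ccl8 at 169 and 755 CPM in 21 and 24 neutrophil-like cells and at 464 CPM in the 15 dendritic-like cells of the CD45+ pair, against 9.39 and 18.4 CPM in Tom- neutrophil-like cells. Progenitor-like cells held it at 27.6, 23.6, 21.8 and 25.9 CPM. In CPM this exceeds the B cell-like background in the Tom- libraries (9.15 and 6.17 CPM) and does not in the Tom+ libraries (31.7 and 30.5 CPM). Counted per cell, the order in CD45- Tom+ was the other way, with 169 Ccl8 UMIs in 269 progenitor-like cells and 54 in 198 B cell-like cells. Progenitor-like cells held 52.8% and 52.7% of Ccl8 UMIs in the Tom- libraries, and macrophage-like cells 62.6%, 31.3%, 55.2% and 39.5%. An unnamed cluster of 24 to 53 cells a library, led by Ms4a7, Pf4 and C1qb but with T cell markers raised as well, held Ccl8 at 336, 212, 387 and 72.6 CPM and Ccl12 at 48.0, 8.65, 18.5 and 10.4 CPM. For Ccl12, macrophage-like cells held 56.9%, 87.5%, 43.8% and 83.4% of UMIs. In the Tom+ libraries another 21.0% and 43.4% lay in an unnamed cluster with macrophage markers and leading plasma cell genes, whose cells had medians of 51756 and 55843 UMIs. Ccl12 was at most 0.369 CPM in progenitor-like cells, with 1 to 3 UMIs a library.

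Cx3cl1 was highest in endothelial and stromal cells. Blood endothelial-like cells, the lining across which monocytes leave the blood, held 39.0 (28.5 to 52.2), 65.0 (50.2 to 82.8), 22.6 (12.9 to 36.8) and 41.4 (31.3 to 53.8) CPM, and progenitor-like cells 30.4, 33.2, 30.3 and 36.8 CPM, a range inside that of the endothelium. The Postn-led progenitors stood at 42.2, 51.0, 25.4 and 50.0 CPM. In CD45+ Tom+ their value came from 24 UMIs in 30 cells, and the Sfrp1-led progenitors also held 24 UMIs there, in 19 cells. Mesothelial-like cells were lower (9.02, 8.55, 5.54 and 9.49 CPM, against 0 to 2.82 CPM in B cell-like cells), as were lymphatic endothelial-like cells, found in the Tom+ libraries (3.20 and 6.37 CPM). Of the leukocytes, dendritic-like cells held 17.4 (9.27 to 29.8), 7.24 (3.74 to 12.6) and 2.07 (0.56 to 5.30) CPM in the 3 libraries with at least 30, the first from 13 UMIs in 4 of 38 cells of CD45- Tom+. That value lay above the mesothelial-like ones, with an interval that reached the highest of them. The highest levels were in an unnamed cluster led by Vwf and Lep, with 115 and 57.0 CPM in the 17 and 55 cells of the Tom+ libraries. In mast-like cells no UMI was found, which with 3 counts as the limit allows 1.15, 11.0, 2.20 and 10.2 CPM. The whole-library level was 4.57, 18.9, 4.54 and 19.9 CPM, in step with the share of progenitor-like cells, which held 42.7%, 83.3%, 38.0% and 86.2% of the UMIs. Within progenitor-like cells the Tom ratio was -0.13 (-0.36 to 0.10) and -0.28 (-0.62 to 0.04), smaller than could be told from 0 at this depth.

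Ccr2, the receptor that carries inflammatory monocytes into tissue, was highest in monocyte-like cells, at 1088 (999 to 1182) and 959 (892 to 1031) CPM in the 48 and 60 cells of the Tom- libraries; 57.4% and 68.3% of these cells had a UMI after thinning, against at most 1.12% of progenitor-like cells. Dendritic-like cells held 268, 384 and 434 CPM in the Tom+ library of the CD45- pair and the 2 Tom- libraries. T cell-like cells stood at 392, 270, 398 and 291 CPM, NK-like cells at 225, 287 and 306 CPM in the 3 libraries with at least 30, and macrophage-like cells at 85.4 to 246 CPM. The ranges of dendritic-like, T cell-like and NK-like cells overlapped. The T cell-like values mixed a gamma-delta cluster led by Trdc and Cd163l1, with Ccr2 at 500, 626, 558 and 606 CPM, and a cluster led by Cd8b1 and Trac, at 119, 125, 80.6 and 160 CPM. The gamma-delta cluster made up 70.9%, 24.6%, 65.0% and 26.4% of T cell-like cells, so the higher class value of the Tom+ libraries was not seen inside it. Progenitor-like cells, the background, stood at 3.06, 2.21 and 2.74 CPM outside the CD45- Tom+ library described above. Macrophage-like cells nevertheless held the largest share of Ccr2 UMIs (43.5%, 54.7%, 45.7% and 54.3%), followed in the Tom+ libraries by T cell-like cells (29.0% and 23.7%).

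Cx3cr1, the fractalkine receptor, was highest in the monocyte-like cells of the Tom- libraries (180 and 193 CPM) and next in macrophage-like cells (52.4, 136, 50.1 and 131 CPM), which held 70.6%, 80.9%, 60.1% and 82.4% of its UMIs. Mast-like cells gave 48.5, 87.9, 55.1 and 40.9 CPM, overlapping the macrophage-like range, and neutrophil-like cells of the Tom- libraries 58.7 and 49.8 CPM. Those mast-like levels were uneven: in the larger Tom+ groups the top 2% of cells held 40.9% and 34.7% of the UMIs. In T cell-like cells, where Ccr2 was high, Cx3cr1 was at 0 to 4.55 CPM against a progenitor-like background of 0.738 to 6.54 CPM. Macrophage-like cells with a Ccr2 UMI more often had a Cx3cr1 UMI than those without, at 23.7% against 7.69%, 36.1% against 18.3%, 20.5% against 8.31%, and 33.5% against 15% of thinned cells.

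Over 48 sums of UMIs by class and library, drawn from 19 classes or unnamed clusters and so sharing libraries and free RNA, Pearson's r of log2(CPM + 1) ranked the genes most like each member. Ccl2 was most like Ccl7 (0.95), then Eno2 (0.85), Eif4e (0.85), Maob (0.84) and Vwa5a (0.84). After Ccl2, Ccl7 was most like Maob (0.86), Eef2k (0.84), Pafah2 (0.82) and Nfkbiz (0.81). For Ccl8 they were the complement genes C1qa (0.86), C1qc (0.85) and C1qb (0.84), then Folr2 (0.84) and Ms4a7 (0.83), and for Ccl12 Gdf3 (0.87), C1qc (0.85), Siglec1 (0.85), C1qb (0.84) and C3ar1 (0.84). The pattern of Ccl8 had an r of 0.74 with that of Ccl12 and of 0.08 with that of Ccl2, the 3 genes being neighbours. Cx3cl1 stood nearest to Tmem47 (0.92), Inhbb (0.91), Col4a2 (0.91), Mcc (0.91) and Msx1 (0.91). Ccr2 stood nearest to Atp8b4 (0.92), Arl4c (0.90), Prex1 (0.89) and Gna15 (0.89), and Cx3cr1 to Fcer1g (0.91), Alox5ap (0.91), Tyrobp (0.90), Cd300a (0.90) and Osm (0.89).

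Other genes of monocyte recruitment were read from 8 lists, with levels compared over classes of at least 50 cells in a library. Of all genes computed in macrophage-like cells, 0.958% (CD45- pair) and 1.05% (CD45+ pair) were at least 2-fold higher in Tom+. Another 1.16% and 1.43% were lower. Of 16 other CC chemokines, Ccl21a, the ligand that guides dendritic cells into lymphatics, stood at 10028 to 11674 CPM in lymphatic endothelial-like cells, Ccl5 at 4907 to 6603 CPM in NK-like cells, Ccl6 at 1938 to 2113 CPM in macrophage-like cells and Ccl4 at 676 to 1275 CPM in neutrophil-like cells, a range that overlapped that of NK-like cells. In macrophage-like cells 0 of 7 computed were higher in Tom+ and 1 lower in the CD45- pair, and 1 higher and 2 lower in the CD45+ pair (Ccl4 up, Ccl11 down in both, Ccl24 down in the second). Of 8 further chemokine and chemoattractant receptors, Cxcr4 (711 to 824 CPM), C5ar1 (737 to 783 CPM) and Ccr1 (742 to 892 CPM) were highest in neutrophil-like cells and Ccr7 (727 to 793 CPM) in dendritic-like cells; 1 of 7 and 1 of 6 computed were lower in Tom+ macrophage-like cells (Ccr7 and Fpr1). Among 4 decoy receptors, which bind chemokines without signalling through G proteins, Ackr3 (161 to 196 CPM) and Ackr2 (118 to 153 CPM) were highest in lymphatic endothelial-like cells, Ackr3 overlapping progenitor-like cells (128 to 198 CPM), Ackr1 in blood endothelial-like cells (35.0 to 47.7 CPM), and Ackr3 was lower in Tom+ macrophage-like cells of both pairs. Of 5 growth factors and receptors of monocytes, none of the 3 computed passed in macrophage-like cells, where Csf1r, the receptor that keeps macrophages alive, was at 538 to 555 CPM; Csf1, its ligand, was at 225 to 267 CPM in progenitor-like cells, behind neutrophil-like cells at 531 to 699 CPM. Of 12 adhesion genes, 0 of 9 passed in macrophage-like cells of either pair, and Pecam1 was highest in blood endothelial-like cells (1104 to 1351 CPM).

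Among 6 protease genes that free CX3CL1 or trim CC chemokines, Adam10 was at 339 to 358 CPM in lymphatic endothelial-like and 234 to 353 CPM in macrophage-like cells, and Mmp14 (469 to 577 CPM) and Mmp2 (660 to 817 CPM) were highest in progenitor-like cells and Mmp9 in neutrophil-like cells (818 to 899 CPM); Mmp2 was lower in Tom+ macrophage-like cells of both pairs, the single one of 4 to pass. Of 12 NF-kB feedback and induced genes, 0 of 11 were higher and 1, Il6, lower in Tom+ macrophage-like cells of each pair, with median log2 ratios of -0.18 and -0.20. Of the genes lower in Tom+ macrophage-like cells of both pairs, Ccl11, Mmp2 and Il6 were highest in progenitor-like cells and Ackr3 was second highest there, and the 8 progenitor markers summed to 349, 664, 354 and 721 CPM in macrophage-like cells; the part of progenitor RNA in these 4 was not tested. Nfkbiz (1993 to 2103 CPM) and Tnfaip3 (1205 to 1352 CPM) were highest in mast-like cells, Cxcl2 (11717 to 17224 CPM) and Nfkbia (2366 to 2827 CPM) in neutrophil-like cells. Of the 11 dissociation genes, 0 passed in macrophage-like cells of the CD45- pair and 1, Hspa1b, was lower in the other, with medians of 0.24 and 0.13. In progenitor-like cells, 1.57% (CD45- pair) and 1.09% (CD45+ pair) of all genes computed were past the fold upward, and 0.151% and 0.498% downward. The listed genes past the fold were all higher in Tom+. In the CD45- pair they were Ccl3, Ccl4, Ccl5 and Ccl6 of 9 chemokines and Cxcr4 of 2 receptors. Csf1r and Csf2rb of 5 growth factor and receptor genes, and Selplg, Itgb2, Itga4 and Itgal of 9 adhesion genes, also passed in that pair. In the CD45+ pair they were Cxcr4, Csf2rb, Itga4 and Itgal. No gene of the decoy (2 computed), protease (5), NF-kB (12) or dissociation (11) lists passed in progenitor-like cells of either pair. Those that passed are best known from leukocytes, and the 10 macrophage markers summed to 437, 179, 213 and 179 CPM in progenitor-like cells; the part of leukocyte RNA in these ratios was not tested. Genes named for passing the fold, outside the 4 most abundant of a list, were chosen after their values were seen.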

How the data were processed

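Cells were sorted into 4 groups named by the labels, with 1 library per group, and sequenced with droplet-based 3-prime chemistry. The authors aligned reads and counted UMIs with Cell Ranger 3.0.2 against mm10, per the submitters' processing notes, and deposited raw counts per gene and barcode for 33567 barcodes, or 64083756 to 139397501 UMIs a library. From these counts, barcodes were kept by the cut-offs of the study's methods, 1000 to 7000 detected genes and mitochondrial UMIs below 8%. Doublets were marked with Scrublet in scanpy 1.11.5 at 0.8% expected per 1000 barcodes and removed (54 to 427 a library). Values were scaled to 10000 per cell, and 2000 variable genes, leaving out 70 (the members and listed chemokine genes), 30 principal components, 15 neighbours and Leiden resolution 1 (leidenalg 0.10.2) gave the clusters; libraries were not integrated. A cluster was named where at least 3 of a class's markers were raised (at least 20 CPM and 4 times the median cluster) and no unrelated class reached 0.8 of that share or led its top 10 genes; these thresholds were set after seeing the data. The members, markers and gene lists were chosen with earlier results of these data known.

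Levels are CPM of UMIs summed per class and library with exact Poisson 95% intervals, shares carry exact Clopper-Pearson intervals (scipy 1.17.1), and ratios the conditional exact interval of a pair of counts; a count of 0 was given 3 counts as its limit. Copies of 1 molecule are counted once through its UMI, and intervals cover counting error only. Ratios were computed in classes of at least 100 cells in both libraries, across all genes of mean CPM at least 5, and called past the fold at an absolute log2 ratio of 1. No p-value was computed, since cells are not replicates. The interval code was tested on simulated data. Named genes were the 7 members, the 5 genes most like each (at least 20 CPM in 1 of the sums of at least 50 cells, leaving out predicted, ribosomal and mitochondrial genes), and up to 4 genes of highest mean CPM per list. Of these, 1 gene is not reported here. Alternatives were the doublet, barcode, resolution, variable-gene, weighting, depth and low-value choices, and, added after seeing the data, barcodes shared between libraries, the cluster mix and classes of at least 30 cells. Gene positions came from GENCODE on GRCm38 and promoters from RefSeq.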

Additional observations from a re-analysis of the deposited data

Results flagged for a closer look

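The Tom+ over Tom- ratios of 2 ligands went in opposite directions in macrophage-like and progenitor-like cells of both pairs. For Ccl2, the log2 ratio was 1.33 higher in macrophage-like than in progenitor-like cells of the CD45- pair (1.02 against -0.31) and 2.18 higher in the CD45+ pair (1.43 against -0.76). For Ccl7, the gaps were 1.45 (1.22 against -0.23) and 2.70 (1.90 against -0.80). With the same cluster mix in both libraries, the values were 0.41 against -0.22 and 0.80 against -0.63 for Ccl2, and 0.42 against -0.14 and 1.13 against -0.74 for Ccl7, so the gaps were smaller. With 1 library a group, these differences were not tested.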

How the results depend on the processing

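No paired analysis was possible because each group is 1 library with no replicate numbers to pair; a fit over all 4 libraries with the CD45 label as a block, which leaves 1 residual degree of freedom, was not run. Of 168 log2 ratios of members recomputed under alternatives, 116 moved by less than their counting interval, 50 moved by more and 2 moved by more and changed sign from an interval clear of 0, both of Ccl12 in macrophage-like cells of the CD45+ pair (-0.43 with cells thinned to 2000 UMIs, -0.19 with the same cluster mix). Of the 50, 2 more changed sign from an interval that held 0, in progenitor-like cells of that pair: Ccl8 (-0.25, and 0.27 under the looser barcode filter) and Cx3cl1 (-0.28, and 0.29 when thinned). Of 336 levels, 209 stayed within their interval. The mast-like share of Ccl2 UMIs, in the order used above, was 74.9%, 13.9%, 72.7% and 15.1% when each cell weighed the same and 74.3%, 14.0%, 72.7% and 15% when thinned, because mast-like cells hold fewer UMIs than most. With doublets kept it was 41.8% in CD45- Tom+ and 4.22% in CD45+ Tom-, and with a looser barcode filter (500 genes, 20% mitochondrial) 36.7%, 40.8% and 3.79% in CD45- Tom+, CD45+ Tom+ and CD45+ Tom-. Members past the fold in progenitor-like cells numbered 0 with doublets kept, 2 under the looser barcode filter and 2 with genes of at least 1 CPM in the CD45- pair, and 1 when thinned and 1 with genes of at least 1 CPM in the CD45+ pair; in macrophage-like cells, 1 and 1 with the same cluster mix. The share of all genes past the fold under these alternatives is not given here, so these counts are not set against it. Ccl12, Cx3cl1 and small classes are limited by their counts.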
